A study of Mus musculus with 4 samples.

Results

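The interferon-stimulated genes followed here are a list of 47 genes that cells switch on in response to interferon, taken by gene symbol from the count files of a single-cell RNA sequencing study of mouse thymocytes. Of these, 46 were found among the 32285 genes of the files, and Mx1 was not analysed here because no row carried that symbol. Single thymocytes were captured in droplets and their transcripts counted at the 3′ end by unique molecular identifier (UMI), which counts PCR copies of a transcript once. Libraries control 1 and control 2 came from Tox4;F/F mice, which carry floxed Tox4 alleles and no Cre, and libraries cKO 1 and cKO 2 from Tox4;F/F;Lck+ mice, which carry the same floxed alleles and the Lck-Cre transgene, whose recombinase acts in developing T cells and not in the other cells of the thymus. All mice were sex-matched littermates on the C57BL/6 background, between 6 and 8 weeks old, and each group had 2 libraries. The comparison by stage asks whether loss of Tox4, a nuclear DNA-binding protein, changed the level of these genes in double-negative (DN), double-positive (DP), single-positive (SP) or non-T cells.

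Type I and type III interferons bind receptors at the cell surface and activate the kinases Jak1 and Tyk2, which phosphorylate transcription factors such as Stat2. Stat2 and Irf9 are part of a complex that binds the interferon-stimulated response element (ISRE) in promoters and turns on genes whose products restrict viruses, sense foreign nucleic acid or feed back on the pathway. In the thymus, interferon made by resident cells acts on maturing thymocytes without infection, and late single-positive cells are known for a high level of these genes.

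The 4 files held 57354 cells, and 33547 were kept after filtering, between 5685 and 12078 per library with a median of 2493 to 3445 UMIs. Library quality followed the replicate number: 48.3% and 46.1% of the cells of control 1 and cKO 1 had over 10% mitochondrial UMIs, against 20.6% and 23.1% of those of control 2 and cKO 2. Cells were clustered without the members, so that no class was built on them, and classes were named from marker genes: DN, DP blasts (DPbla, cycling), resting DP cells (DPre), DP cells under selection (DPsel), CD4SP, CD8SP and non-T cells. These rebuilt names are "DN-like" and so on. The share of kept cells left unnamed was 4.87% and 4.36% in control and 9.34% and 7.27% in cKO. Pairs of libraries shared between 10 and 33 barcodes among kept cells. Tox4 itself was counted at 72.2 and 74.7 CPM (the gene's share of all UMIs of its class on the usual CPM scale) in DP cells of control 1 and 2 and at 56.1 and 61.0 CPM in cKO 1 and 2, but 3′ reads outside the deleted exons do not check the deletion.

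The promoters of the list show the element through which interferon acts. RefSeq promoter windows of GRCm38.p6, from 250 bases before to 50 bases after the start, were found for 37 of the members. The core of the ISRE, GAAANNGAAA on either strand with overlapping matches allowed, was present in 22 of the 37, or 59.5%, against 3.99% of all 27025 genes with a window. The type II interferon element TTCNNNGAA was present in 7 of the 37 against 9.55% of all genes. The windows below are 100 bases each and belong to members called between cKO and control in DP blasts (Ifit1, Ifih1 and Eif2ak2), in resting DP cells (Ifi206) or in more than 1 DP class (Bst2, Rsad2 and Slfn8). They are written 5′ to 3′ along the gene, with ISRE core matches in capitals.

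Ifit1 (chr19:34640749-34640848, plus strand): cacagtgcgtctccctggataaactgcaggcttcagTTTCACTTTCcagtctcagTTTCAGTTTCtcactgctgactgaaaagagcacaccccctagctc
Bst2 (chr8:71537545-71537644, minus strand): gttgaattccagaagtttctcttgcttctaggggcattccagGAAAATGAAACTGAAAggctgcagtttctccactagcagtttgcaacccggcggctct
Ifih1 (chr2:62646206-62646305, minus strand): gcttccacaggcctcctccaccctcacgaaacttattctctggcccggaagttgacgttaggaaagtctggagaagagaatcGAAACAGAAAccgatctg
Eif2ak2 (chr17:78882523-78882622, minus strand): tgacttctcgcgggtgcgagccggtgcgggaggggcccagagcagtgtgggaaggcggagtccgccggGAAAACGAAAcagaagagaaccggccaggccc
Rsad2 (chr12:26456518-26456617, minus strand): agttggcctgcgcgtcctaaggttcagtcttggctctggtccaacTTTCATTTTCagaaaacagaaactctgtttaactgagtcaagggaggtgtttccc
Slfn8 (chr11:83020804-83020903, minus strand): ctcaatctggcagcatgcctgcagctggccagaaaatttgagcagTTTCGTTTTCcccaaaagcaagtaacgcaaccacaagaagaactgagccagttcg
Ifi206 (chr1:173491304-173491403, minus strand): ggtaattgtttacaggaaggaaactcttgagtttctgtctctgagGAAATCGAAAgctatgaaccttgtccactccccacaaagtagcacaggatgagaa

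Ifit1 held 2 separate matches on the strand opposite to the gene, the first starting 104 bases and the last 85 bases before the start. Bst2 held 2 overlapping matches, and the matches of Ifih1 and Eif2ak2 lay after the start, at positions 33 and 19 of the transcript. Lgals3bp, which also differed in DP blasts, had no match in its window. For Usp18, Rtp4 and Zbp1, called in DP blasts as well, no window was found. A match describes these letters and is not a measured binding site.

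As a share of UMIs, the summed level of the members was lowest in DP blasts and highest in CD4SP cells in every library. Without scaling to UMIs, DP blasts and DPre changed places, as given below for single cells. The summed level of the 46 members was 1353, 1254, 1468 and 1433 CPM in DN cells of control 1, control 2, cKO 1 and cKO 2. In DP blasts it was 392, 346, 486 and 524 CPM, in DPre 740, 637, 757 and 820 CPM, and in DPsel 1706, 1383, 1782 and 1495 CPM. In CD4SP cells it reached 5432, 4564, 4731 and 4884 CPM, and in CD8SP cells 4416, 3596, 4020 and 4010 CPM. Non-T cells had 4485, 2994, 3740 and 2829 CPM. Within each library CD4SP cells held between 9.32 and 13.9 times the summed level of DP blasts, and DN cells between 2.73 and 3.63 times. The ranges of neighbouring stages did not overlap from DN to CD4SP, while the range of non-T cells overlapped with that of CD8SP and the range of DPsel with that of DN.

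**Figure D1:**
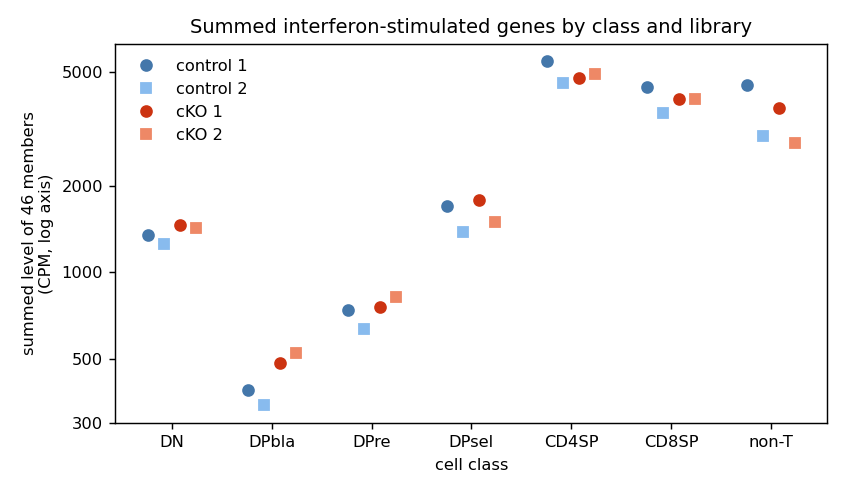
Summed level of the 46 members (y axis, CPM, log axis) in each cell class (x axis), with 1 point per library, circles for replicate 1 and squares for replicate 2. The 4 DP blast libraries lie between 346 and 524 CPM, below every other class, and the CD4SP libraries between 4564 and 5432 CPM.

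Member by member, the lowest class was shared by most of the list and the highest was not. DP blasts had the lowest mean CPM among the 7 classes for 42 of the 46 members. The exceptions were Ifit2 and Ifi27l2a, lowest in DN, Lgals3bp, lowest in DPre, and Bst2, lowest in DPsel. The highest mean among the 7 classes was in CD4SP cells for 18 members, in non-T cells for 14, in CD8SP cells for 13 and in DN cells for 1. Among the αβ T cell stages the highest mean was in CD4SP cells for 25 members, in CD8SP for 19 and in DN for 2, Bst2 and Dtx3l. Against all DP cells, all 46 members were higher in SP cells by edgeR's quasi-likelihood test (adjusted p under 0.05), where 28.9% of all genes tested were higher, with a median log2 difference of 2.77. The range ran from 0.68 for Stat2 to 4.80 for Ifit3b. In non-T cells 44 members were higher than in DP, where 27.5% of all genes were, and Gbp7 and Ifit1bl1 were not called.

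DN cells stood apart in which members they expressed. Against DP cells 28 members were higher, where 26.5% of all genes were, and 6 were lower (Ifi209, Samd9l, Slfn5, Slfn1, Ifi27l2a and Ifit2). The share of all genes that were lower is not given, so the 6 are not read as many or few. Ly6a, the stem cell antigen Sca-1, was higher by 3.09 ± 0.27 (log2, SE), and Bst2, the tetherin that holds budding virus at the membrane, by 2.11 ± 0.11. Slfn1 and Slfn5, of the Schlafen family of growth regulators, were lower by log2 differences of -1.84 ± 0.42 and -1.83 ± 0.24. Going from DN to DP blasts 36 members fell, where 30.1% of all genes did, and Ifit2 alone rose, by 1.36 ± 0.21.

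As a share of UMIs, the list climbed again from DP blasts onward. From DP blasts to DPre 24 members rose, where 37.5% of all genes did, and 4 fell (Bst2, Lgals3bp, Eif2ak2 and Ifit2). The share of all genes that fell is not given, so the 4 are not read as many or few. For Eif2ak2 the scales disagreed: its mean was 16.0 CPM in DP blasts and 16.1 CPM in DPre, while the test, which scales libraries by TMM factors, gave a log2 difference of -0.31 ± 0.12 (adjusted p = 0.0192), so which of these classes is lower depends on the scaling. The falls of Bst2 and Lgals3bp depend on it too. Their means were 81.0 and 15.1 CPM in DP blasts and 81.0 and 14.9 CPM in DPre, while the test gave -0.31 ± 0.10 and -0.36 ± 0.14. Ifit2 was lower in DPre on both scales, at 20.5 and 14.6 CPM (-0.77 ± 0.11). From DPre to DPsel 40 rose, where 31.4% of all genes did, and Stat2 fell, by a log2 difference of -0.46 ± 0.11. The steps were large for Slfn1 (3.26 ± 0.13) and for Ifi27l2a (2.93 ± 0.10), which encodes a small interferon-induced membrane protein. From DPsel to CD4SP all 46 rose, where 25.2% of all genes did. Between CD8SP and CD4SP cells 10 members were lower in CD8SP, where 9.18% of all genes were, among them Ly6a (-2.06 ± 0.21) and Slfn5 (-1.32 ± 0.12), and 3 were higher (Oas3, Lgals3bp and Ifit3). No share of all genes is given for the 3.

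**Figure D2:**
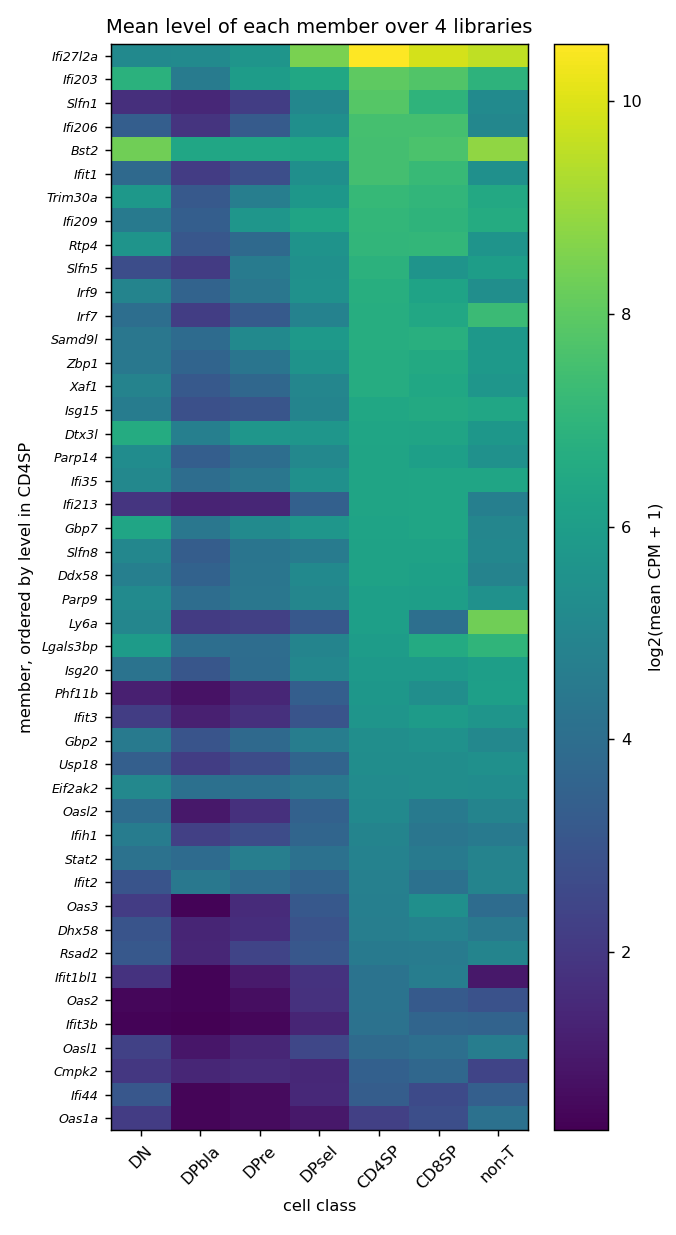
Mean level of each of the 46 members over the 4 libraries (colour, log2 of mean CPM + 1) by cell class (x axis), members ordered by level in CD4SP (y axis). The DP blast column is darkest for 42 members.

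In SP cells Ifi27l2a alone made up 31.6% and 31.1% of the summed level in control 1 and 2 and 24.3% and 23.6% in cKO 1 and 2. The next groups were the Ifi200 family of DNA-binding proteins (674, 551, 669 and 636 CPM) and the Schlafen family (347, 325, 327 and 379 CPM). The IFIT family, which binds viral RNA, summed to 269, 242, 293 and 302 CPM and the OAS family, which senses double-stranded RNA, to between 81.0 and 104 CPM. In DP blasts the same families were at 22.2 to 28.4 CPM (IFIT) and 1.27 to 4.86 CPM (OAS). Level comparisons are of UMIs counted at the 3′ end and are not scaled by transcript length.

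At an equal number of UMIs, single cells showed the same order of stages. Each cell was thinned to 1000 UMIs, which left out 177, 107, 423 and 229 shallower non-T cells and at most 248 DP cells of a library. Cells with at least 5 member UMIs made up 43.7%, 38.1%, 38.2% and 39.4% of SP cells in control 1, control 2, cKO 1 and cKO 2. In DP cells the share was 2.28% (95% exact binomial interval 1.85 to 2.78), 1.60% (1.32 to 1.93), 2.34% (1.92 to 2.81) and 1.98% (1.70 to 2.29). The intervals cover counting error only. Without thinning the DP shares were 18.4%, 12.2%, 21.7% and 14.3%. The 1% of DP cells with the most member UMIs held between 12.1% and 13.3% of them, and DP cells with at least 10 numbered 21, 19, 23 and 42, or 0.50%, 0.28%, 0.49% and 0.47% of the thinned DP cells. The control and cKO ranges overlapped for DP and for SP. In DN the shares were 4.05% and 3.48% in control and 6.92% and 5.90% in cKO, with intervals that overlapped. Non-T cells with at least 5 made up 30.3%, 21.7%, 20.5% and 20.2%. Cd8b1, a gene of T cells, was counted at 565 to 977 CPM in non-T cells against 1549 to 2179 CPM in DP, and whether these UMIs came from free RNA, doublets or T cells within the class was not tested.

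**Figure D3:**
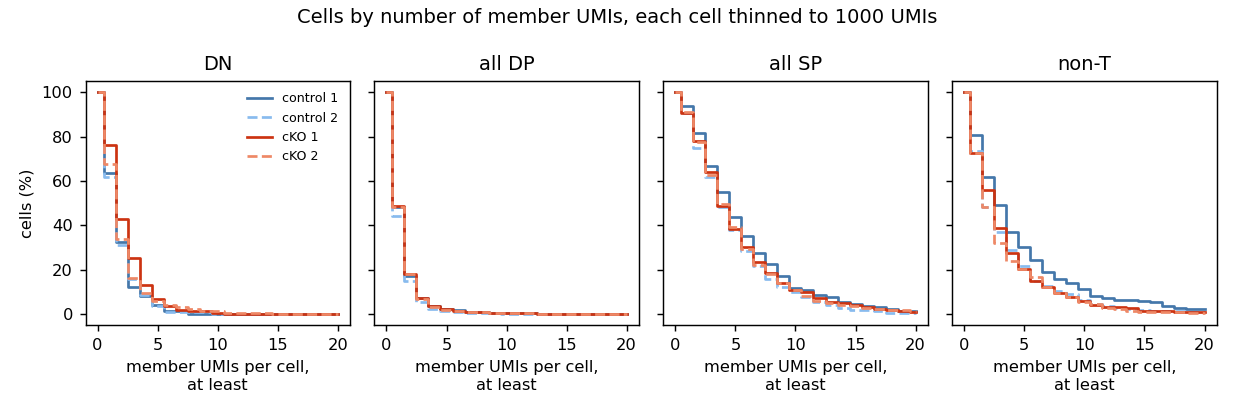
Share of cells (y axis, percent) with at least the number of member UMIs on the x axis, each cell thinned to 1000 UMIs, in DN, all DP, all SP and non-T cells. Lines are libraries, solid for replicate 1 and dashed for replicate 2. At 5 UMIs the SP lines lie between 38.1% and 43.7% and the DP lines between 1.60% and 2.34%.

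Between genotypes, a part of the list was higher in cKO in DP blasts. Of 36 members tested there, 8 were higher in cKO by edgeR's quasi-likelihood test (adjusted p under 0.05) and 0 lower, where 1.71% of all 10766 genes tested were higher. The median log2 fold change of the 36 was 0.61 against -0.0026 over all genes, and 31 were above 0. The other 10 members had too few counts to be tested. A gene entered the test when 2 libraries reached 1.35 CPM, and 7 of the 36 did so through the cKO libraries alone, which favours a higher level in cKO, while none did through the controls alone. Of these 7, Ifit1 and Usp18 were called. Among the other 29 members 6 were higher, where 1.66% of all genes that passed in the same ways were, 25 were above 0 and the median was 0.51. Members that passed through cKO alone numbered 5 of 31 in DN, 3 of 42 in DPre, 3 of 43 in DPsel, 2 of 46 in all DP cells and 0 in SP and non-T cells, and none of them was called. With the replicate number as a block, 18 were higher, where 6.06% of all genes were. DESeq2 called 2 and gave no adjusted p for 13, where it called 2.42% of the genes to which it gave one. In 23 of the 36 both cKO libraries lay above both controls, where 18.3% of all genes did so. This count and that of 18 with the block were over all 36, and were not redone without the 7 that passed through cKO alone. The summed level followed, with a log2 ratio of 0.31 in the first pair and 0.60 in the second.

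Among the sensors of nucleic acid, Ifih1, which recognises long double-stranded RNA, was at 1.91 and 2.46 CPM in control 1 and 2 and at 4.68 and 6.23 CPM in cKO 1 and 2. Its log2 fold change was 1.35 ± 0.34 (adjusted p = 0.0417). Zbp1, a sensor of Z-form nucleic acid, was at 8.90 and 7.84 CPM in control and 14.9 and 13.5 CPM in cKO (0.81 ± 0.20, adjusted p = 0.0403). Eif2ak2, the kinase PKR that halts translation, was at 10.8 and 13.2 CPM in control and 19.3 and 20.7 CPM in cKO (0.77 ± 0.18, adjusted p = 0.0305). In all 3 genes both cKO libraries lay above both controls, which is not separate support, since the test on the same libraries chose them.

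Of the effectors, Bst2 had the most counts. It was at 60.4 and 59.9 CPM in control and at 105 and 98.2 CPM in cKO, a log2 fold change of 0.81 ± 0.11 (adjusted p = 0.00239). Ifit1, which binds viral RNA, was at 0.847 and 1.08 CPM in control and 5.64 and 6.23 CPM in cKO (2.63 ± 0.38, adjusted p = 0.00344). The control values of Ifit1 rest on few UMIs, so the size of its fold is imprecise, and neither control reached the level needed for a test. Usp18, the protease that removes Isg15 and damps the receptor, was at 1.91 and 1.08 CPM in control and 4.68 and 6.66 CPM in cKO (2.04 ± 0.38, adjusted p = 0.0101), and only 1 control reached that level. Rtp4, a receptor chaperone, was at 5.93 and 4.0 CPM in control and 9.25 and 11.1 CPM in cKO (1.12 ± 0.25, adjusted p = 0.0267). Lgals3bp, a secreted glycoprotein, was at 11.4 and 8.45 CPM in control and 20.4 and 20.1 CPM in cKO (1.10 ± 0.19, adjusted p = 0.00644). The control and cKO libraries did not overlap in any of these genes, which again is not separate support.

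**Figure D4:**
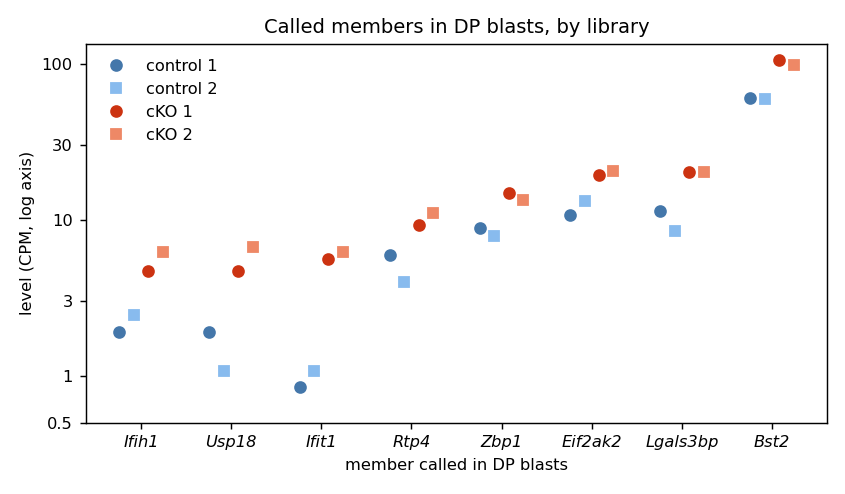
Level (y axis, CPM, log axis) of the 8 members called in DP blasts (x axis), with 1 point per library. Both cKO libraries lie above both controls for each, from Ifit1 at 0.847 and 1.08 against 5.64 and 6.23 CPM to Bst2 at 60.4 and 59.9 against 105 and 98.2 CPM.

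Ifi27l2a and Slfn1, which are among the more abundant members in SP cells, were not called in DP blasts. Ifi27l2a was at 44.9, 31.5, 36.3 and 32.9 CPM in control 1, control 2, cKO 1 and cKO 2, and Slfn1 at 2.12, 1.54, 1.68 and 1.71 CPM. Stat2 was at 19.9 and 12.1 CPM in control and 11.4 and 12.5 CPM in cKO. The summed marker list of CD4SP cells in DP blasts was 19.9 and 38.3 CPM in control and 24.1 and 28.0 CPM in cKO. Other lists separated by genotype there: the DPre markers were at 3107 and 2811 CPM in control and 2555 and 2554 CPM in cKO, the DPsel markers at 182 and 166 against 154 and 148 CPM, and the DP blast markers at 6044 and 5994 against 5803 and 5479 CPM. Cd8b1 was at 1809 and 1585 CPM in control and 1266 and 1071 CPM in cKO, and the erythroid markers at 11.2 and 8.15 against 14.1 and 14.6 CPM. The part of these shifts in the result was not tested. The list of DN cells followed the replicate number, at 120 and 78.7 CPM in control and 119 and 71.9 CPM in cKO, while Il2ra, a DN gene within it, was at 1.27 and 1.23 CPM in control and 4.32 and 3.07 CPM in cKO, and its part in the result was not tested.

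DP blasts consisted of 3 clusters, of which the second made up 28.8% and 31.4% of the class in control and 37.3% and 39.5% in cKO. The summed level was higher in both cKO libraries than in both controls within each cluster: 308 and 283 against 354 and 427 CPM in the first, 378 and 376 against 513 and 532 CPM in the second, and 552 and 480 against 790 and 794 CPM in the third. Single members called in the class did not all separate within clusters: Usp18 overlapped between genotypes in the second, and Rtp4 and Lgals3bp in the third. Leaving out cKO 1 or cKO 2 left 1 member called in DP blasts, Bst2. The folds of the members that lost the call stayed near those with all libraries, at 2.70 and 2.55 for Ifit1, 1.09 and 1.11 for Lgals3bp and 2.25 and 1.74 for Usp18 (log2). Keeping the cells with extreme UMI totals also left 1, Usp18, with Bst2 at a log2 fold change of 0.52 (adjusted p = 0.0563), Eif2ak2 at 0.26 (adjusted p = 0.551) and Lgals3bp at 0.36 (adjusted p = 0.328). Ifit1 moved to 0.96 (adjusted p = 0.110) without doublet removal and to 1.19 (adjusted p = 0.324) when the limit on mitochondrial UMIs was 5%. At that limit Bst2 alone was called, with Ifih1 at 0.56 (adjusted p = 0.657) Rtp4 at 0.38 (adjusted p = 0.654), Eif2ak2 at 0.53, Lgals3bp at 1.01, Zbp1 at 1.10 and Usp18 at 1.65, and Zbp1 was at 0.49 (adjusted p = 0.215) without doublet removal.

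In resting DP cells 4 of 42 members tested were higher in cKO and 0 lower, where 0.929% of all genes were higher. Rsad2, the antiviral enzyme viperin, was at 3.39 and 1.55 CPM in control and 5.90 and 6.73 CPM in cKO (log2 fold change 1.46 ± 0.33, adjusted p = 0.0409). Bst2 was at 71.6 and 57.0 CPM in control and 106 and 89.3 CPM in cKO (0.65 ± 0.13, adjusted p = 0.0247). Slfn8 was at 15.5 and 13.5 CPM in control and 21 and 24.9 CPM in cKO (0.72 ± 0.15, adjusted p = 0.0313), and Ifi206, of the Ifi200 family, at 6.12 and 6.05 CPM in control and 9.66 and 12 CPM in cKO (0.88 ± 0.21, adjusted p = 0.0494). Among the 39 members that did not pass the filter through cKO alone 4 were higher, where 0.94% of all genes that passed in the same ways were. Of these 39, 32 were above 0 and the median was 0.22. Both cKO libraries lay above both controls for 19 of the 42 members, where 18.3% of all genes did so. The 42 include 3 that passed through cKO alone, and this count and the next were not redone without them. With the replicate block 14 members were higher, where 5.22% of all genes were. DESeq2 called 1 and gave no adjusted p for 6, where it called 1.64% of genes. Over 15 alternatives Bst2 kept its call in 14, Slfn8 in 10, Rsad2 in 9 and Ifi206 in 7. The lowest log2 fold change of Slfn8 among them was 0.29. Without control 2 these 4 lost their calls, with log2 fold changes of 0.95 for Rsad2, 0.49 for Bst2, 0.62 for Slfn8 and 0.88 for Ifi206. Without control 1 Rsad2 was at 2.05. Without cKO 2 Bst2 alone of the 4 kept its call. In DPre cells the DP blast markers were at 254 and 169 CPM in control and 341 and 295 CPM in cKO, the CD8SP markers at 41.3 and 39.4 against 52.4 and 51.1 CPM, the erythroid markers at 20.9 and 16.6 against 28.3 and 41.9 CPM, and Cd8b1 at 3049 and 2728 against 2564 and 2316 CPM. The CD4SP markers were at 33.8 and 34.6 CPM in control and 36.5 and 35.8 CPM in cKO and the B cell markers at 476 and 427 against 550 and 479 CPM. Thymic epithelial markers were lower in cKO, at 48.7 and 37.0 against 33.7 and 34.3 CPM. The part of these shifts in the result was not tested.

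Taking all DP cells as 1 class, 5 of 46 members were higher and 0 lower, where 3.87% of all genes were higher. They were Bst2 (68.8 and 60.1 CPM in control, 106 and 89.1 CPM in cKO, adjusted p = 0.00271), Usp18 (5.10 and 2.96 against 7.34 and 8.98 CPM, adjusted p = 0.00825), Slfn8 (14.1 and 12.4 against 17.9 and 21.4 CPM, adjusted p = 0.0118), Rsad2 (3.67 and 1.66 against 5.2 and 6.05 CPM, adjusted p = 0.0191) and Lgals3bp (17.7 and 13.0 against 21.6 and 21.1 CPM, adjusted p = 0.0350). With the replicate block 9 were higher, where 8.80% of all genes were, and Ifi27l2a was lower. DESeq2 called 4 higher and 1 lower, where it called 5.94% of genes, and gave no adjusted p for another 5. It did not call Lgals3bp (adjusted p = 0.0551) and called Ifi27l2a as lower (adjusted p = 0.0424). Without control 2, Rsad2 was at 0.68 (adjusted p = 0.121), Lgals3bp at 0.33 (adjusted p = 0.327) and Slfn8 at 0.53 (adjusted p = 0.0516), and without control 1 Rsad2 was at 1.80. Lgals3bp kept its call in 6 of 15 alternatives and Bst2 in all 15. When the limit on mitochondrial UMIs was 5%, Bst2 alone was called and Slfn8 was at 0.29. In 22 of the 46 the libraries did not overlap and cKO was higher, where 19.7% of all genes did so. DP blasts took part in this sum to different extents, since their marker list in all DP cells was at 1732 and 1654 CPM in control and 2395 and 2198 CPM in cKO. The DPsel marker list moved the other way, at 920 and 843 CPM in control and 664 and 632 CPM in cKO. Other markers separated by genotype too. Among them were the erythroid markers at 19.2 and 14.0 against 40.6 and 30.6 CPM and the B cell markers at 404 and 379 against 426 and 410 CPM. Cd8b1 was at 2179 and 1978 against 1689 and 1549 CPM. The part of these shifts in these values was not tested.

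The remaining fixed members in DP cells were not called by edgeR with genotype alone. With the replicate block, those called higher included Ifit1 (adjusted p = 0.00119), Ifih1 (adjusted p = 0.00509) and Eif2ak2 (adjusted p = 0.0107). The log2 fold change of Ifit1 was 0.90 without control 1 and 0.20 without control 2. Among the IFIT genes and transcription factors, Ifit1 was at 13.5 and 8.17 CPM in control and 15.3 and 14.5 CPM in cKO, and Irf9 at 22.5 and 18.2 CPM against 23.1 and 24.6 CPM. Irf7, which amplifies interferon production, was at 13.5 and 9.23 CPM in control and 11.8 and 9.70 CPM in cKO. Isg15, a ubiquitin-like modifier, followed the replicate number, at 15.1 and 6.83 CPM in control and 15.3 and 9.61 CPM in cKO. Ifi27l2a was at 146 and 116 CPM in control and 106 and 80.7 CPM in cKO (log2 fold change -0.44, adjusted p = 0.0554). Its call depended on the setting, since it was lower by DESeq2, with the replicate block (adjusted p = 1.22e-05), and without control 2 or cKO 1, and at -0.29 and -0.25 without control 1 or cKO 2. The other fixed members had log2 fold changes between -0.28 (Slfn1) and 0.60 (Ifih1).

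In DPsel none of 43 members was called, where 0.168% of all genes were called in either direction, and 13 had an unadjusted p under 0.05, where 8.19% of all genes did. Usp18 was at 8.22 and 7.41 CPM in control and 14 and 15 CPM in cKO (adjusted p = 0.147). With the replicate block 4 were higher, where 1.46% of all genes were, and 1 was lower. In DN cells none of 31 members was called, where 0.0454% of all genes were, and 3 had an unadjusted p under 0.05, where 7.59% of all genes did. Ly6a was at 13.4 and 21.5 CPM in control and 53.8 and 37.6 CPM in cKO (adjusted p = 0.190, and 0.000645 with the replicate block). In DN cells the DP blast markers were at 314 and 274 CPM in control and 659 and 519 CPM in cKO, and the erythroid markers at 2.97 and 12.6 CPM against 216 and 19.9 CPM; their part in the result was not tested. DESeq2 called 0 members in both classes.

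In SP cells 1 of 46 members was higher and 1 lower, where 0.943% of all genes were called in either direction. In 17 members both cKO libraries lay above both controls, where 22% of all genes did so, and in 3 below, where 16.8% of all genes did. Ifi27l2a, the most abundant member, was at 1575 and 1306 CPM in control and 1073 and 1065 CPM in cKO, a log2 fold change of -0.46 ± 0.10 (adjusted p = 0.0117). Ifit1bl1, a gene of the IFIT cluster close in sequence to Ifit1, was at 14.8 and 14.3 CPM in control and 25.8 and 26.7 CPM in cKO (0.82 ± 0.19, adjusted p = 0.0226). Reads shared between these copies are dropped in counting, which leaves the value of each copy uncertain. With the replicate block 3 were higher and 1 lower, where 1.95% of all genes were called. DESeq2 called 1, where it called 0.317% of genes. The summed level was 4985 and 4199 CPM in control and 4411 and 4516 CPM in cKO, and without Ifi27l2a 3410 and 2893 CPM against 3338 and 3451 CPM, so the groups overlapped in both. Without control 1 Ifi27l2a was at -0.33 and not called. Ifit1bl1 was not called without control 1, control 2 or cKO 2, with its log2 fold change at 0.83, 0.81 and 0.82. The marker list of DP blasts, made of cycling genes, was at 386 and 472 CPM in control and 732 and 635 CPM in cKO in SP cells. Other lists separated there too, among them the erythroid markers at 9.78 and 9.40 against 16.0 and 23.7 CPM. The markers of mononuclear phagocytes were at 208 and 197 against 222 and 240 CPM and the DN markers at 53.9 and 46.3 against 69.1 and 55.8 CPM. The part of these shifts in these results was not tested.

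In CD8SP cells Slfn5 was at 42.9 and 23.1 CPM in control and 49.9 and 73.1 CPM in cKO (0.86 ± 0.21, adjusted p = 0.0400) and Ifi27l2a at 1248 and 997 CPM in control and 835 and 703 CPM in cKO (-0.56 ± 0.12, adjusted p = 0.0101), where 0.315% of all genes were called. Without cKO 1 or without cKO 2 neither was called. Slfn5 was also lost without control 2, at 0.50, and Ifi27l2a without control 1, at -0.40. With the members kept among the variable genes for clustering, Slfn5 was at 0.36 (adjusted p = 0.81). Over 14 alternatives Slfn5 kept its call in 5 and Ifi27l2a in 8. The DP blast markers in CD8SP cells were at 226 and 188 CPM in control and 281 and 233 CPM in cKO. In CD4SP cells none of 45 members was called, where 0.599% of all genes were, and 7 had an unadjusted p under 0.05, where 8.79% of all genes did. Ifi27l2a was at 1832 and 1493 CPM in control and 1268 and 1328 CPM in cKO (adjusted p = 0.0710, and 0.0106 with the replicate block). The DP blast markers there were at 511 and 643 CPM in control and 1102 and 927 CPM in cKO. DESeq2 called 0 members in either class.

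Other fixed members in SP cells had groups that overlapped or did not pass with genotype alone. Slfn5 had a log2 fold change of 0.45 (adjusted p = 0.143 by edgeR, and 0.0169 with the replicate block). It was at 0.65 without cKO 1 and 0.24 without cKO 2. Irf7 was at 99.0, 90.4, 98.7 and 93.5 CPM in control 1, control 2, cKO 1 and cKO 2, and Zbp1 at 96.4, 90.2, 94.3 and 98.3 CPM. Isg15 again followed the replicate number, at 123 and 65.3 CPM in control and 104 and 57.9 CPM in cKO. Bst2 was at 178 and 158 CPM in control and 212 and 197 CPM in cKO (0.26 ± 0.11, adjusted p = 0.429), and Slfn1 at 200 and 194 CPM in control and 167 and 171 CPM in cKO (-0.25 ± 0.11, adjusted p = 0.453). Rsad2 was at 19.3 and 15.7 CPM in control and 23.1 and 30.3 CPM in cKO (adjusted p = 0.212).

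**Figure D5:**
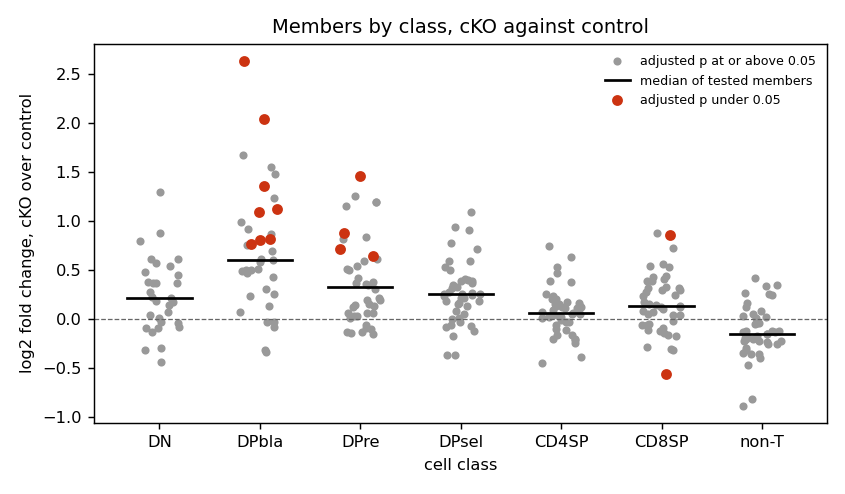
Log2 fold change of each tested member, cKO over control (y axis), by cell class (x axis), with a line at the median and called members in red. The median is 0.61 in DP blasts, 0.33 in DPre, 0.06 in CD4SP and -0.15 in non-T cells. Without the members that entered the test through the cKO libraries alone it is 0.51 in DP blasts and 0.22 in DPre.

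Non-T cells, in which the Lck promoter is not known to drive Cre, had none of 43 members called, where 0% of all genes were called. At an unadjusted p under 0.05 there were 2, both lower, where 3.69% of all genes passed, and DESeq2 called 0. Their summed level followed the replicate number, and so did Isg15, at 137 and 40.4 CPM in control and 107 and 41.0 CPM in cKO. The makeup of the class differed between libraries, since the neutrophil markers summed to 374, 4071, 3344 and 62.7 CPM in control 1, control 2, cKO 1 and cKO 2. Erythroid markers summed to 87732, 53059, 91083 and 75593 CPM in the same libraries, which enter the total of each non-T level, and those of mononuclear phagocytes to between 15473 and 18593 CPM. Bst2 was at 532 and 432 CPM in control and 452 and 425 CPM in cKO. In all kept cells together none of 46 members was called, where 2.56% of all genes were, with 7 at an unadjusted p under 0.05, where 18% of all genes were. With the replicate block 7 were higher and 2 lower in all kept cells, where 14.8% of all genes were called, and DESeq2 called 1, where it called 4.69% of genes.

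Whether the genotype effect itself differed between stages was tested as an interaction. Against DP cells no member differed in DN, where 0.164% of all genes did, and none in SP, where 0.37% did. At an unadjusted p under 0.05 there were 7 in DN, where 6.55% of all genes passed, and 10 in SP, where 8.31% did. In non-T cells Bst2 alone differed, with an effect lower by a log2 difference of -0.78 ± 0.14 (adjusted p = 0.0100), where 0.0904% of all genes differed, and 13 had an unadjusted p under 0.05, where 6.65% of all genes did.

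The genes that make, sense and transmit interferon were read from lists of their own. Of 19 receptors and signalling genes, 18 were tested in DP cells, 1 was higher and 1 lower, where 6.25% of all genes were called in either direction, against which 2 of 18 rests on too few genes to be read as a result on the list. Irf8, a transcription factor of interferon-responsive genes, was at 5.42 and 5.96 CPM in control and 8.16 and 9.83 CPM in cKO (adjusted p = 0.0226), and Socs1, the feedback inhibitor of Jak kinases, at 364 and 458 CPM in control and 286 and 316 CPM in cKO (adjusted p = 0.0387). The same 2 genes were called in DP blasts, where 2.67% of all genes were, Irf8 at 4.02 and 5.23 against 9.25 and 10.9 CPM and Socs1 at 261 and 284 against 182 and 190 CPM. Ifnar1, a chain of the type I receptor, was at 66.5 and 61.9 CPM in control and 55.4 and 53.9 CPM in cKO in DP cells (adjusted p = 0.323).

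Of 16 sensors and adaptors 13 were tested in DP cells, and Cgas, the sensor of cytosolic DNA, was higher, at 2.47 and 2.29 CPM in control and 5.61 and 4.82 CPM in cKO (log2 fold change 1.18 ± 0.22, adjusted p = 0.00483), a count of 1 in 13 near the share over all genes. None of the 10 interferon genes reached the count needed for a test in any class, and in SP and non-T cells all 10 were at 0 UMIs. Of 21 genes led by type II interferon none was called in DP. Of the same list 1 gene was called in SP, in CD8SP and in CD4SP cells, against the shares of all genes given above for these classes. Cxcl10, a chemokine, was at 0 and 1.34 CPM in control and 4.37 and 5.01 CPM in cKO in SP cells (adjusted p = 0.0196), and at 0 and 2.37 against 8.78 and 9.21 CPM in CD8SP cells (adjusted p = 0.0182). It entered both tests through the cKO libraries alone and rests on few UMIs, so no size is given for its difference. In CD4SP cells Irgm1, an immunity-related GTPase, was at 84.8 and 77.2 CPM in control and 50 and 54.3 CPM in cKO (adjusted p = 0.0417).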

How the data were processed

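Per the labels and file headers, the authors counted UMIs with cellranger 6.1.1 on the mm10 (GRCm38) genome, and the deposited values are these counts, not normalized. Cells with under 200 genes, over 10% mitochondrial UMIs or totals in the top or bottom 2.5% were left out, as were the 5% with the highest Scrublet score. Clusters (Leiden, resolution 1) were built without the members and named from marker lists. The threshold that left a low-UMI cluster unnamed was chosen once the clusters were known. UMIs were summed per library and class and tested with edgeR 4.0.16 (quasi-likelihood F test, TMM, filterByExpr, genotype alone), adjusted by Benjamini-Hochberg over all genes tested. SE is the fold change over the square root of F. The study analysed 2 pairs of mice, and the labels number both groups 1 and 2, so the number was taken as the pair. Deviations of same-numbered libraries correlated at 0.318 over genes in DP and 0.0812 in non-T cells. The members did not follow the number alike in both genotypes. Those higher in replicate 1 than in replicate 2 were 22 of 36 in control and 8 in cKO in DP blasts, 33 and 8 of 42 in DPre and 38 and 18 of 46 in DP. In non-T cells they were 39 and 34 of 43. Alternatives were other scalings, filters, cell filters, DESeq2, the replicate block and leaving out each library. On simulated counts of 10636 genes for DP blasts, 77.3% of the genes changed 2-fold were recovered. Each member is accounted for, and the fixed genes and every called member are named. The members and lists were chosen with earlier results of these data known. With 2 libraries a group, p-values rest on few mice.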

Additional observations from a re-analysis of the deposited data

Results flagged for a closer look

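The genotype effect on Bst2 differed between non-T and DP cells by a log2 difference of -0.78 in the interaction test. Bst2 was higher in cKO in DP cells (68.8 and 60.1 against 106 and 89.1 CPM) and not in non-T cells (532 and 432 against 452 and 425 CPM). Without control 1 no member differed in that test.

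In droplets over the mitochondrial limit, which no comparison used, the summed level of the members relative to non-mitochondrial UMIs was 1258 and 1177 CPM in control 1 and 2 and 1310 and 1407 CPM in cKO 1 and 2, so that both cKO libraries, the lower at 1310 CPM, lay above both controls. These droplets mix all classes, and the difference was not tested.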

How the results depend on the processing

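Counts of called members moved with the processing in the genotype comparison. Against DP cells 46 members were higher in SP and 44 in non-T cells in each alternative that could be run, and in DN 25 to 30 were higher and 5 to 9 lower. With the replicate block, which pairs libraries of the same number, 1 member was called in DN, 18 in DPbla, 14 in DPre, 5 in DPsel, 10 in DP, 1 in CD4SP, 4 in SP and 9 in all cells. With no filter on low counts there were 1 (DN), 8 (DPre), 3 (DPsel), 9 (DP), 1 (CD4SP), 1 (SP) and 6 (all cells). DESeq2 called 2 in DPbla, 1 in DPre, 0 in CD8SP, 1 in SP and 1 in all cells. Plain CPM offsets gave 1 in DPre, 1 in CD4SP and 0 in CD8SP, and DESeq2 size factors 1 in all cells. A 5% mitochondrial limit gave 1 in DPbla, 1 in DPre, 3 in DPsel, 1 in DP and 0 in SP, and no value in DN, CD8SP or the comparisons between stages, which had too few cells, and a 20% limit 1 in CD8SP, 1 in SP and 1 in all cells. Without doublet removal there were 3 in DPbla, 1 in CD8SP and 1 in SP, without removal of extreme UMI totals 1 in DPbla, 1 in DPsel, 3 in DP and 0 in SP, with members among the variable genes 1 in CD8SP, and at resolution 1.5 2 in DPre and 0 in CD8SP. Leaving out a library gave 0 to 1 in DN, CD4SP and CD8SP, 1 to 10 in DPbla, 0 to 11 in DPre, 0 to 4 in DPsel, 3 to 8 in DP and 1 to 5 in SP and in all cells. A lone library in a group is assumed to vary like the other group. Apart from the shares given above for the replicate block and DESeq2, no share of all genes is set beside these counts. They are therefore not read as particular to the members. The cause was not tested.

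The count of members whose effect differed between non-T and DP cells was 2 with no filter, 2 at 20% mitochondrial UMIs, 5 without removal of extreme UMI totals and 0 to 7 without a library. It was 1 for DN with no filter and 1 for SP at resolution 1.5. The log2 ratio of the summed level in DN was 0.039 without removal of extreme totals and 0.26 as the mean log2(CPM + 1). In SP it was -0.17 at 5% mitochondrial UMIs, 0.11 without Ifi27l2a and 0.13 as the mean log2(CPM + 1). In DPbla it was 0.62 in the third cluster alone, an alternative chosen after seeing the data. Leaving out a library gave 0.10 to 0.21 in DN, -0.06 to 0.20 in DP, 0.37 to 0.54 in DPbla, -0.16 to 0.09 in SP and -0.46 to 0.12 in non-T cells. The difference in the share of cells with at least 5 member UMIs, in percentage points, was 1.23 in DN at 500 UMIs and 3.75 at 2000, 1.33 in DP at 2000, 0.86 in SP at 20% mitochondrial UMIs and -0.44 in non-T cells at 2000. Without a library it was 2.13 to 3.15 in DN, -0.12 to 0.55 in DP, -4.91 to 0.75 in SP and -9.94 to -1.32 in non-T cells.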
